A study of Mus musculus with 3 samples.

Results

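Basement membranes are thin sheets of matrix that line epithelia and surround endothelium, muscle and nerve. Their scaffold is a laminin polymer, each laminin being a trimer of an alpha, a beta and a gamma chain, and a network of type IV collagen. Nidogens and the heparan sulfate proteoglycan perlecan bind both and tie them together. In the early mouse embryo and in embryoid bodies, the first basement membrane is laid down by endoderm next to the epiblast, with the laminin alpha 1, beta 1 and gamma 1 trimer as its main laminin, and parietal endoderm lays down large amounts of the same proteins.

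The genes described here are the collagen IV chains Col4a1 and Col4a2, the laminin chains Lama1, Lama5, Lamb1, Lamb2 and Lamc1, the nidogens Nid1 and Nid2, and Hspg2, which encodes perlecan. They were taken by gene name among the non-control probes of the arrays. All 10 were found, with 13 probes of 39429 on the arrays, and all 13 probes were well above background on all 3 arrays in both conditions. All 10 are among the 20388 genes tested.

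RNA came from mouse embryoid bodies, floating aggregates of differentiating embryonic stem cells, after 10 days in suspension without LIF, the cytokine that keeps stem cells undifferentiated. The mutant embryoid bodies carry a Dido3 protein truncated at its C-terminus and overexpress the missing terminal region, encoded by exon 16 (Dido3deltaCT+HADido3CT in the labels, mutant+CT here), and the others are wild type. Each of 3 two-colour arrays carried 1 RNA of either condition, from 3 biological replicates per condition, with mutant+CT in Cy3 on replicates 1 and 3 and in Cy5 on replicate 2. There were no embryoid bodies with the truncation alone or the construct alone among these arrays, so their effects cannot be told apart. The labels name neither the stem cell lines nor the promoter of the construct.

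Ratios are given on the log2 scale, mutant+CT divided by wild type on the same array, and a mean carries its SD across the 3 arrays. Intensities are in arbitrary units after normalization within the array. They were not aligned between arrays or probes, so only the 2 conditions of the same array are compared. This is done by probe, or by sums over the same probes, in which bright probes weigh most. Overlap of the groups across arrays is not judged from the intensities. Since replicate 2 is alone in its dye orientation, a dye effect and a difference of that replicate cannot be told apart. In bulk RNA, fewer cells of a type and less RNA per cell cannot be told apart either. The number of arrays limits the precision.

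Well above background were 68.1% to 78.5% of spots, by array and dye, and the SD of the log2 ratios of all genes was 0.77, 0.74 and 1.02 on replicates 1, 2 and 3. The targeted gene, Dido1, had ratios of 3.53 ± 0.12, 1.79 ± 0.33, 0.77 ± 0.80 and -2.39 ± 1.29 (SD, n = 3) at its 4 probes. Where these lie relative to the deleted part is not determined here. In limma with Benjamini-Hochberg adjustment at an adjusted p under 0.05, 0 of 20388 genes passed. The unadjusted p was under 0.05 for 3211 genes (15.7%). The smallest adjusted p over these genes was 0.0734. Dido1 stands among them by its brightest probe, at 0.77. In limma over all kept probes, its probe at 3.53 had an adjusted p of 0.0435.

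Most members were measured by a single 60-base probe. The first 30 bases of those that the results turn on are shown, to identify which stretch of each transcript was read, as the files give them and in lower case because no base within them is singled out.
Col4a1 A_51_P124254: ttttcgtctctggagaaactgtactatcct
Col4a2 A_51_P491350: cagtcttcctaaaatgaggcagagtctagg
Lama1 A_66_P118600: atgttgaactaaagccacacggacaacaga
Lama5 A_55_P2064321: tttgttcctcctgcccaacaactgtcagta
Nid1 A_55_P2084303: tggaactgatcggagaactgagcttctatg
Nid1 A_55_P2115713: ttctagagccataggacttcttcctaattc
Nid1 A_55_P2084308: cagatgtatacaagtattggatgattcctc

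In the mm9 build that the files use, the Col4a1 probe lies at 11199009 to 11199068 on the minus strand of chromosome 8 and the Col4a2 probe at 11448840 to 11448899 on the plus strand of the same chromosome. The Lama1 probe lies at 68171924 to 68171983 on the plus strand of chromosome 17 and the Lama5 probe at 179911079 to 179911138 on the minus strand of chromosome 2. Exon and UTR positions are not determined, as no mm9 gene annotation entered the work. The files list these probes at transcript positions 5969, 5978, 9456 and 11327.

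Both collagen IV chains, the chains of the laminin alpha 1, beta 1 and gamma 1 trimer and nidogen 1 were lower in mutant+CT on every array, while Lama5 was higher on every array. Lamb2 and Hspg2 were lower by small amounts, and Nid2 had both signs. Over the 10 members the median log2 ratio was -1.52, against 0.00 (rounded) over all genes tested. Of the members, 8 of 10 were lower on every array, against 17.4% of all genes, and 1 of 10 was higher on every array, against 20.3%. None of the members passed limma over all genes (0 of 10, against 0% of all genes), and at an unadjusted p under 0.05 there were 5 lower members, against 6.7% of all genes, and 1 higher one, against 9.04%.

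**Figure D1:**
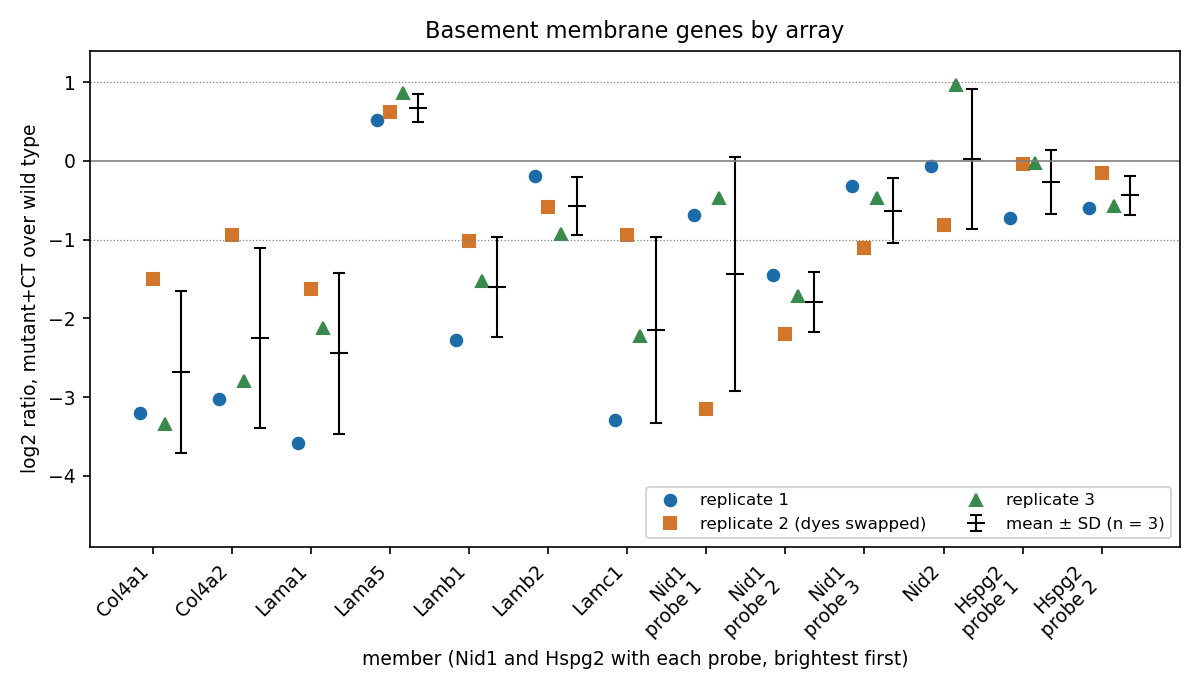
Log2 ratio of mutant+CT over wild type (vertical axis) for each of the 13 member probes, with a point for each array and the mean ± SD over the 3 arrays in black; dotted lines mark a 2-fold difference. The Col4a1, Col4a2, Lama1, Lamb1 and Lamc1 points lie below 0 on every array with replicate 2 nearest to 0, and the Lama5 points lie between 0.53 and 0.87.

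Col4a1 and Col4a2 encode the alpha 1 and alpha 2 chains that together form the most widespread collagen IV trimer. Col4a1 had intensities of 5499, 32525 and 6911 in mutant+CT on replicates 1, 2 and 3, against 50646, 92040 and 70155 in wild type. Mutant+CT was far below wild type on each of the 3 arrays. The log2 ratios were -3.20, -1.50 and -3.34, with a mean of -2.68 ± 1.03 (SD, n = 3), a 6.42-fold lower level in mutant+CT, and a 95% interval of -3.75 to -1.61 (limma, adjusted p = 0.0960). The mean was -2.42 without replicate 1, -3.27 without replicate 2 and -2.35 without replicate 3. Of all genes tested, Col4a1 had the 48th lowest mean ratio.

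Col4a2 had intensities of 3982, 32657 and 7156 in mutant+CT, against 32344, 62706 and 49593 in wild type. Within each array mutant+CT was the lower, by the least on replicate 2. Its mean ratio was -2.25 ± 1.14 (SD, n = 3), or 4.76-fold lower (limma, adjusted p = 0.129). It was -1.87 without replicate 1, -2.91 without replicate 2 and -1.98 without replicate 3. Within the arrays the ratio of Col4a2 exceeded that of Col4a1 by 0.18, 0.56 and 0.55, so the alpha 2 chain differed slightly less than the alpha 1 chain on all 3 arrays (exact two-sided sign-flip test, p = 0.25, the smallest p that 3 arrays allow).

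The Col4a1 probe is printed in 10 spots on each array, and 9, 10 and 8 of them on replicates 1, 2 and 3 were free of outlier marks. Their log2 ratios ran between -3.32 and -3.07 on replicate 1, between -1.55 and -1.45 on replicate 2 and between -3.41 and -3.17 on replicate 3. The SD over spots was 0.090, 0.036 and 0.082, against 1.03 over the 3 arrays. The spread of Col4a1 thus lay between arrays, and not between repeat measurements of the same hybridisation.

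**Figure D2:**
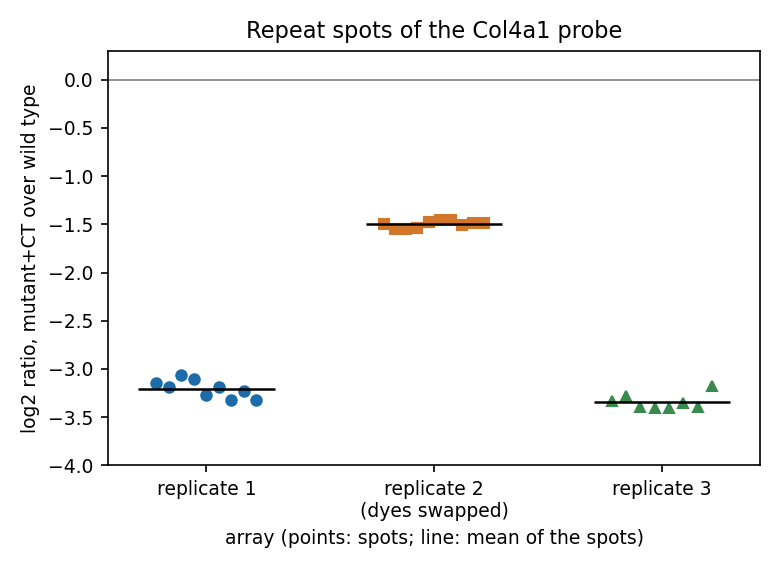
Log2 ratio of mutant+CT over wild type (vertical axis) at each spot of the Col4a1 probe on the 3 arrays, with the mean of the spots as a line. Spots of an array lie close together, with SDs of 0.036 to 0.090, while replicate 2 lies at -1.50 and replicates 1 and 3 at -3.20 and -3.34.

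Col4a1 and Col4a2 are known to be transcribed in opposite directions from a shared promoter. RefSeq promoter windows (GRCm38.p6, 250 bases before to 50 after each start) were matched for 7 of the 10 members, all but Lama1, Lamc1 and Nid2. The Col4a1 and Col4a2 windows share 78 bases, and the starts they are built on lie such that the transcripts overlap head to head by 22 bases. The overlap is shown because both collagen IV genes begin in it. It is given on the plus strand at chr8:11312801-11312830, with the 22 shared bases in capitals.
Col4a1 and Col4a2 starts: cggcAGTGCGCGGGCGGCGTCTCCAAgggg

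Letters of 5 short motifs were searched on both strands of these windows. A GC box (GGGCGG) was found in 6 of 7 member windows, all but that of Lamb2, and in 35.7% of all 32851 windows. The 1 GC box of the Col4a1 window lies in the bases shared with Col4a2, so the same site was counted in both windows. A CCAAT box (CCAAT) was found in 4 of 7, those of Col4a1, Col4a2, Lamb1 and Nid1, and in 37.4% of all windows. The TATA box (TATAAA) was found in 0 of 7 member windows and 13.6% of all. A GATA motif (GATAA) was found in 0 of 7 and 25.4% of all, and a Sox motif (ACAATG) in 0 of 7 and 12.6% of all. These are matches of letters only. To set a laminin chain with a lower level in mutant+CT beside one with a higher level, the 100 bases before the start of Lamb1 (chr12:31265193-31265292, plus strand) and of Lama5 (chr2:180225860-180225959, minus strand) are printed 5′ to 3′ with GC boxes in capitals on either strand.
Lamb1: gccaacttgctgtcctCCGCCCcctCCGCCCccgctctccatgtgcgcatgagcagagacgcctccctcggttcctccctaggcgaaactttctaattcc
Lama5: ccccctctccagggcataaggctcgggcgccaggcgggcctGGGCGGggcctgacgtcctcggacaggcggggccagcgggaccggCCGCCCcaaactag

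Both stretches hold GC boxes. The genes had ratios of opposite sign, and a link between motifs and ratios was not tested.

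Among the laminins, the alpha chains went opposite ways. Lama1 encodes the alpha 1 chain of the early embryonic laminin. Its intensities were 5175, 44864 and 13773 in mutant+CT, against 62174, 138769 and 59756 in wild type, and mutant+CT was the lower on each array. The log2 ratios were -3.59, -1.63 and -2.12, with a mean of -2.44 ± 1.02 (SD, n = 3), 5.44-fold lower in mutant+CT (limma, adjusted p = 0.106). Lama1 had the 76th lowest mean ratio of all genes.

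Lama5 encodes the alpha 5 chain, which is widespread in later basement membranes. It had 11876, 23958 and 16292 in mutant+CT, against 8244, 15582 and 8934 in wild type. Within each array mutant+CT was the higher. The log2 ratios of 0.53, 0.62 and 0.87 gave a mean of 0.67 ± 0.18 (SD, n = 3), 1.59-fold higher, with the smallest SD of the 10 members (limma, adjusted p = 0.245). The ratio of Lama5 exceeded that of Lama1 by 4.11, 2.25 and 2.98 within the arrays, a mean of 3.12 ± 0.94, higher on 3 of 3 arrays (exact two-sided sign-flip test, p = 0.25, the smallest p possible).

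The beta 1 chain, Lamb1, had 10246, 59052 and 23709 in mutant+CT, against 49349, 119373 and 68141 in wild type. It was the lower in mutant+CT on each array, by the least on replicate 2, and its mean ratio was -1.60 ± 0.63 (SD, n = 3), or 3.04-fold lower (limma, adjusted p = 0.120). Lamb2, the beta 2 chain, known from the glomerulus and the neuromuscular junction, had ratios closer to 0. It had 1449, 3324 and 1324 in mutant+CT, against 1658, 4993 and 2520 in wild type, with a mean of -0.57 ± 0.37 (limma, adjusted p = 0.357). Within the arrays the ratio of Lamb2 exceeded that of Lamb1 by 2.07, 0.43 and 0.59 (exact two-sided sign-flip test, p = 0.25).

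Lamc1, the gamma 1 chain shared by most laminins, had 6870, 42373 and 14006 in mutant+CT, against 67224, 81019 and 65668 in wild type. Mutant+CT was the lower on each array, and the log2 ratios were -3.29, -0.94 and -2.23. The mean ratio was -2.15 ± 1.18 (SD, n = 3), 4.44-fold lower (limma, adjusted p = 0.142). It was -1.58 without replicate 1, -2.76 without replicate 2 and -2.11 without replicate 3. Lamc1 differed from Lama1 by 0.30, 0.69 and -0.11 within the arrays, so neither chain had the lower ratio on all 3.

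By size, Col4a1, Lama1 and Lamb1 were at least 2-fold lower in mutant+CT on every array, 3 of 10 members against 0.991% of all genes. Lamb1 was just inside that limit on replicate 2, at -1.02, and Col4a2 and Lamc1 were just outside it, both at -0.94 on that array. At least 2-fold higher on every array were 0 of 10 members, against 1.9% of all genes. All 5 of these genes had their ratio nearest to 0 on replicate 2. Leaving out that array, 5 of 10 members were at least 2-fold lower on both other arrays, against 2.81% of all genes. Leaving out replicate 1 the count was 3 of 10, against 2.55% of all genes. It was also 3 of 10 without replicate 3, against 1.33%.

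**Figure D3:**
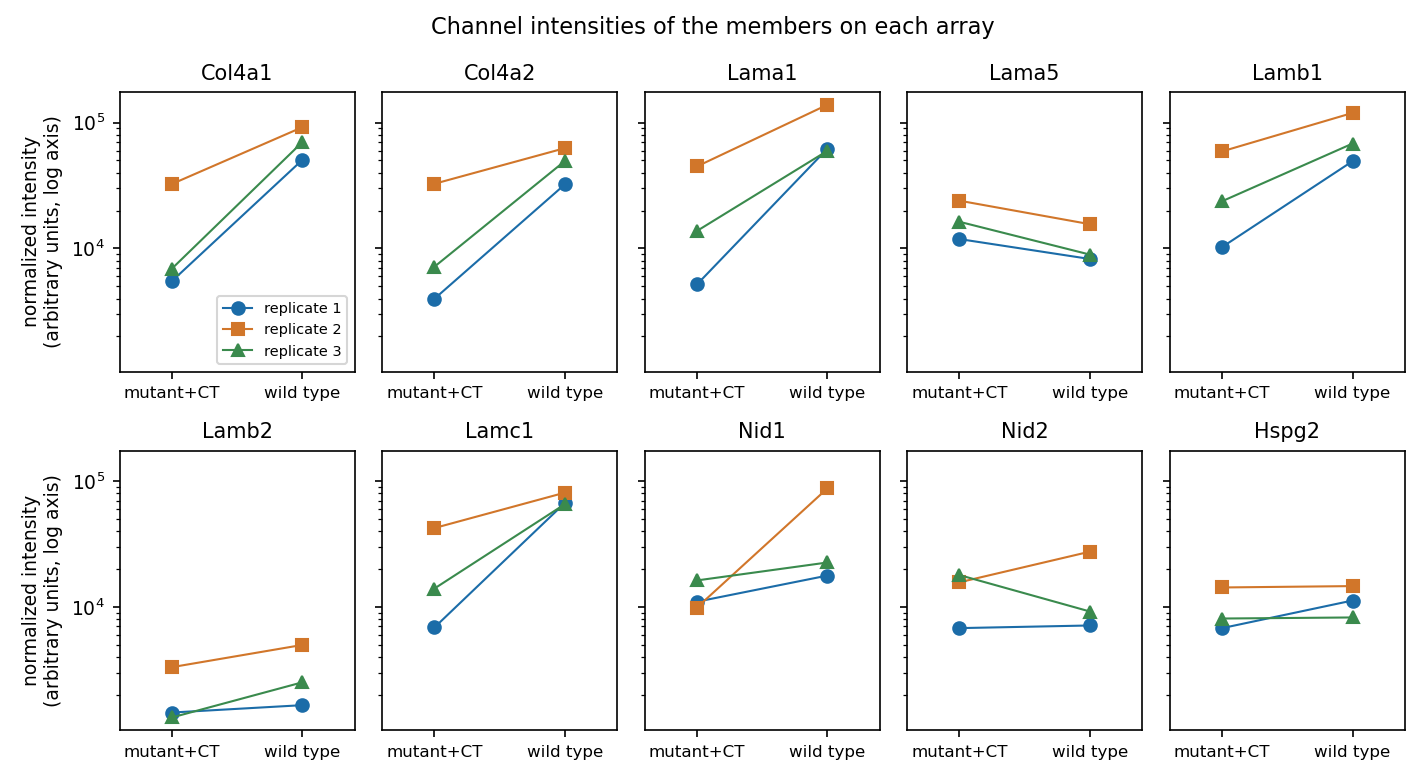
Normalized intensity (vertical log axis, arbitrary units) of each member's brightest probe in mutant+CT (left) and wild type (right), with a line for each array. Lines climb toward wild type on every array for Col4a1, Col4a2, Lama1, Lamb1, Lamc1 and Nid1 and descend on every array for Lama5.

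The connecting proteins were less alike. Nid1, nidogen 1, which joins laminin gamma 1 to collagen IV, has 3 probes, whose first bases are printed above. In mm9 they lie on the plus strand of chromosome 13. The 5′ one lies between 13530138 and 13555992, a span far longer than its 60 bases, which are therefore not contiguous in the genome. The others lie at 13602780 to 13602839 and 13604435 to 13604494. The 3 probes are listed at transcript positions 269, 4283 and 5938.

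The most 3′ probe was the brightest and stands for the gene. It had 11011, 9897 and 16247 in mutant+CT, against 17764, 87743 and 22568 in wild type, with ratios of -0.69, -3.15 and -0.47. Mutant+CT was the lower on each array, with the ratio of replicate 2 far from the others. The mean was -1.44 ± 1.49 (SD, n = 3; limma, adjusted p = 0.321).

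The middle probe had 910, 1036 and 922 in mutant+CT, against 2484, 4761 and 3039 in wild type, and its ratios of -1.45, -2.20 and -1.72 lay closer together. Their mean was -1.79 ± 0.38 (SD, n = 3), 3.46-fold lower (limma over all kept probes, adjusted p = 0.0673). The 5′ probe had 159, 123 and 128 in mutant+CT against 199, 263 and 178 in wild type, and a mean of -0.63 ± 0.42 (adjusted p = 0.310 in the same limma fit). All 3 Nid1 probes were lower in mutant+CT on every array, and all 3 were lowest on replicate 2, the array on which the collagen IV genes, Lama1, Lamb1 and Lamc1 were nearest to 0. Without replicate 2 the mean of the brightest Nid1 probe was -0.58.

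Nid2, the second nidogen, had 6790, 15703 and 17918 in mutant+CT, against 7126, 27522 and 9196 in wild type. Mutant+CT was lower on replicates 1 and 2 and higher on replicate 3. The ratios of -0.070, -0.81 and 0.96 averaged 0.028 ± 0.89 (SD, n = 3; limma, adjusted p = 0.984), with a 95% interval of -0.94 to 0.99. The ratio of Nid2 exceeded that of Nid1 by 0.62, 2.34 and 1.44 (exact two-sided sign-flip test, p = 0.25).

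Hspg2, perlecan, was measured by 2 probes. The probe that stands for the gene had 6785, 14285 and 8092 in mutant+CT, against 11251, 14649 and 8252 in wild type, and the difference came almost wholly from replicate 1. Its ratios of -0.73, -0.036 and -0.028 averaged -0.26 ± 0.40 (SD, n = 3; limma, adjusted p = 0.699), with a 95% interval of -0.91 to 0.38. The other probe averaged -0.44 ± 0.25. Within the arrays the ratio of Hspg2 exceeded that of Col4a1 by 2.47, 1.46 and 3.32 (exact two-sided sign-flip test, p = 0.25).

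Chains of collagen IV and laminin outside the group had no shared direction. Of 10 such genes 8 were measured, 0 passed limma in either direction, 1 was lower and 1 higher on every array (17.4% and 20.3% of all genes), and the median was 0.13. Col4a5, a chain of the collagen IV of kidney and smooth muscle, had ratios of -0.14, -2.79 and -3.69, so it was near 0 on replicate 1 and low on the other arrays. Lama4, the alpha chain of vessels, had 2.51, -1.55 and 0.024, and Lama2, that of muscle, had 1.46, -0.21 and -0.68. Lama3 had a mean of 0.60, Lamb3 of 0.38, Col4a4 of 0.065 and Col4a6 of 0.047. Intensities of Col4a4, Col4a6, Lama2, Lama3 and Lamb3 ran between 80 and 472 in mutant+CT and between 92 and 352 in wild type. At such low intensities a ratio near 0 may not tell an unchanged chain from one that is hardly expressed.

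Genes for folding, modifying and exporting collagen leaned the same way as collagen IV. Of 12 on the list 11 were measured. In mutant+CT 8 of 11 were lower on every array, against 17.4% of all genes, and 0 were higher, against 20.3%. Their median was -0.99, against 0.00 (rounded) over all genes, and 0 of 11 passed limma. Plod2, a lysyl hydroxylase, had 3520, 7876 and 4408 in mutant+CT, against 9816, 19069 and 9897 in wild type. Its ratios of -1.48, -1.28 and -1.17 were close together on the 3 arrays, with a mean of -1.31 ± 0.16 (SD, n = 3; limma, adjusted p = 0.102). P4ha2, a subunit of prolyl hydroxylase, had a mean of -1.17 ± 0.44, and Plod1, another lysyl hydroxylase, -0.99 ± 0.19. Serpinh1, the collagen chaperone Hsp47, averaged -1.18 ± 0.56, and Ppib, a prolyl isomerase, -0.16 ± 0.15; both were chosen after their values were seen.

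Other basement membrane components had a median of -0.55, with 4 of 13 measured genes lower on every array (17.4% of all genes), 0 higher and 0 passing limma. Frem2, a Fraser complex protein, had a mean of -1.60 ± 0.69 (SD, n = 3), and Tinagl1, a laminin-binding matricellular protein, of -1.43 ± 1.08. Pxdn, peroxidasin, which forms the sulfilimine crosslinks of collagen IV, had -0.55 ± 0.59. Sparc, a collagen-binding protein that parietal endoderm makes in quantity, had ratios of -0.0032, 0.58 and -0.068, so it did not follow Col4a1 (chosen after its values were seen).

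Receptors had a median of 0.45, with 3 of 9 measured genes higher and 1 lower on every array (20.3% and 17.4% of all genes), and 0 passing limma. The 3 were Itga6, the integrin alpha 6 chain that binds laminin (1.19 ± 0.59, SD, n = 3), Itgb4, its partner in hemidesmosomes (0.95 ± 0.29), and Itga7, another laminin-binding chain (0.70 ± 0.32). Itga6 had 4137, 7069 and 10082 in mutant+CT, against 2584, 3378 and 2826 in wild type, and was the higher in mutant+CT on each array. Matrix proteases and their inhibitors had a median of 0.085, 2 of 10 higher on every array, 0 lower and 0 passing limma. Those were Mmp9, a gelatinase with 0.97 ± 0.55, and Mmp14, a membrane-bound protease with 3.31, 0.68 and 0.78. Timp1, a protease inhibitor, had -1.05, -1.26 and 0.70.

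**Figure D4:**
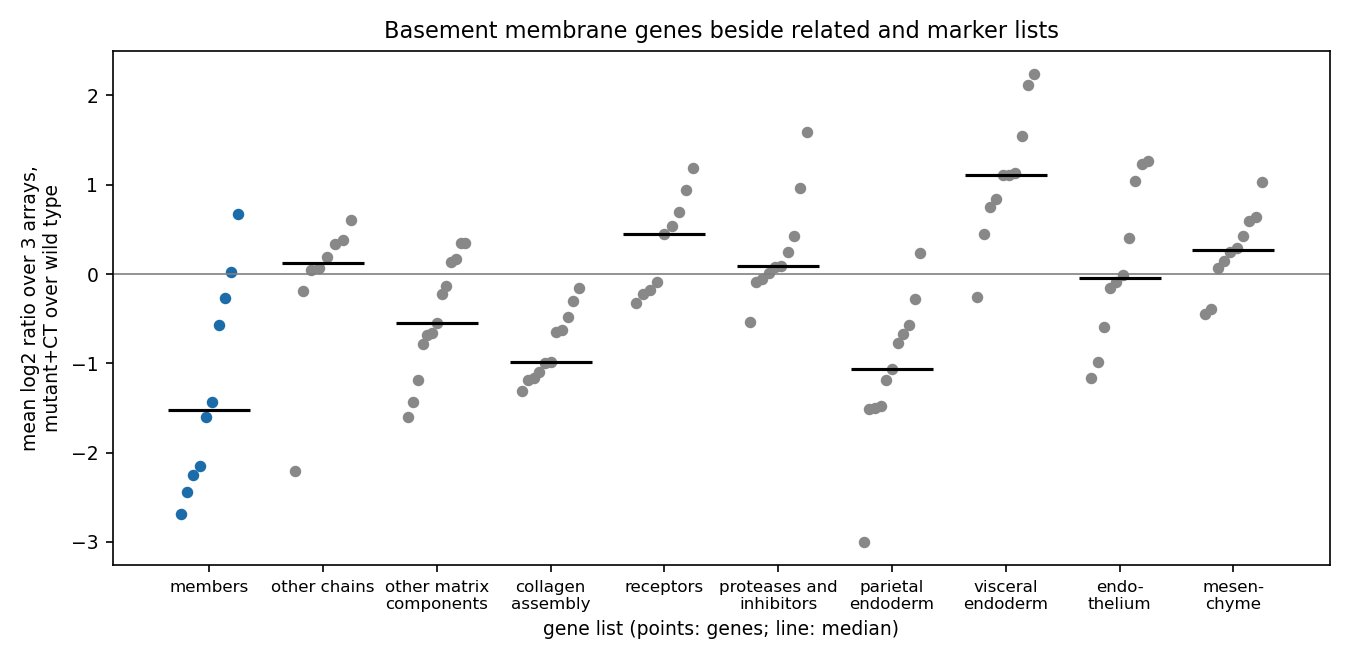
Mean log2 ratio over the 3 arrays (vertical axis) of each measured gene in the members (left), in related lists and in 4 marker lists of cell types, with the median of each list as a line. The members' median is -1.52 and that of collagen assembly genes -0.99, while that of visceral endoderm markers is 1.11.

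Markers of cell types that make basement membrane are given as values, and their part in the members' ratios was not tested. Of 11 primitive and parietal endoderm markers, 8 were lower and 0 higher in mutant+CT on every array (17.4% and 20.3% of all genes). Their median was -1.06, and 0 passed limma. Their summed intensities were 55993, 101591 and 54139 in mutant+CT on replicates 1, 2 and 3, against 83666, 118826 and 86161 in wild type. Of these sums, Cited1 held 13321, 54961 and 24977 in mutant+CT and 17136, 26012 and 25301 in wild type. Its ratios were -0.36, 1.08 and -0.019. Gata6 and Dab2 also had both signs (these and Cited1 chosen after their values were seen). Thbd, thrombomodulin, had ratios of -4.63, -2.88 and -1.48, and Snai1 had a mean of -1.50 ± 0.55 (SD, n = 3). Both were lower on all 3 arrays, and all 11 markers were well above background on every array in both conditions.

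Visceral endoderm markers went the other way, with 8 of 10 higher on every array (20.3% of all genes), a median of 1.11 and 0 passing limma. Their summed intensities were 153105, 368820 and 152013 in mutant+CT on replicates 1, 2 and 3, against 42856, 190983 and 96698 in wild type. Apoa1, an apolipoprotein, had 2.12 ± 0.58 and Trf, transferrin, 2.24 ± 1.09 (SD, n = 3). Neural progenitor markers were lower on every array in 5 of 8 cases (17.4% of all genes), with a median of -2.65 and 0 passing limma. The Notch target Hes5 had -3.92 ± 1.49 and Sox3 -2.19 ± 0.71. Their summed intensities were 7976, 3970 and 10440 in mutant+CT on replicates 1, 2 and 3, against 25987, 5277 and 44242 in wild type. Sox2, with a mean ratio of 0.16, held 4647, 2238 and 8061 of the mutant+CT sums. Markers of undifferentiated stem cells were higher on every array in 6 of 8 cases (20.3% of all genes), with a median of 1.49 and 0 passing limma. Nr0b1 had 2.67 ± 0.91 and Tdgf1 1.08 ± 0.32. The exceptions were Klf4 and Nanog (both chosen after their values were seen). Klf4 had ratios of -1.36, -1.15 and 0.48. Nanog, by far the dimmest of the list in both conditions, had a mean of 0.093. The summed intensities of the list were 152634, 145140 and 503895 in mutant+CT on replicates 1, 2 and 3, against 95399, 58335 and 78049 in wild type. Of these sums, Dppa5a held 82965, 80867 and 309789 in mutant+CT and 48320, 19113 and 38765 in wild type (chosen after its values were seen).

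Mesenchyme markers, which include the fibrillar collagens, differed between arrays. Their medians were 3.85, -1.64 and -0.64 on replicates 1, 2 and 3, where those of the members were -1.50, -0.94 and -1.23. Of 10 mesenchyme markers 0 were lower and 0 higher on every array, against 17.4% and 20.3% of all genes. Their summed intensities were 226834, 4758 and 19908 in mutant+CT on replicates 1, 2 and 3, against 13099, 21705 and 32852 in wild type. Col1a2, a chain of collagen I, had ratios of 3.30, -1.86 and 0.34, and Dcn, decorin, had 4.39, -1.41 and 0.12. The interstitial collagen thus did not share the pattern of collagen IV on replicate 1, where Col4a1 was at -3.20. Endothelial markers had a median of -0.050, with 3 of 10 higher and 1 lower on every array, against 20.3% and 17.4% of all genes. Eng had 1.04 ± 0.16 and Pecam1 1.26 ± 0.57, while Esam had -1.16, Cdh5 -0.98 and Tek -0.59 (these 3 chosen after their values were seen). The summed endothelial intensities were 15261, 8923 and 7341 in mutant+CT on replicates 1, 2 and 3, against 5223, 6501 and 7455 in wild type. Of these sums, Flt1 held 5413, 6007 and 3323 in mutant+CT and 1314, 2056 and 3082 in wild type. The median endothelial log2 ratios were 1.05, -0.63 and -0.83 on the 3 arrays. On replicate 2 the sum was thus higher in mutant+CT while the median ratio was below 0. The endothelial marker Emcn was well above background on 1 array in mutant+CT, and the mesenchymal Lum on 2.

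By profile over the 3 arrays, the 6 genes nearest to Col4a1 outside the group were Col2a1, Cntnap2, Metrn, Scg5, Dmrta2 and Lrrn1, with root mean square differences of 0.13 to 0.38 on the log2 scale. Col2a1, a fibrillar collagen of cartilage and notochord, had ratios of -3.27, -1.41 and -3.55. Cntnap2, a neuronal adhesion protein, had -3.11, -1.30 and -3.11. Nearest to the median profile of the members were Tcea2, Calr, Nme5, Ppnr, the unnamed probe A_55_P2005972 and Glb1l2, within 0.090 to 0.15. Calr, the endoplasmic reticulum chaperone calreticulin, had -1.47, -0.75 and -1.23. Likeness over 3 arrays is a description only.

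**Figure D5:**
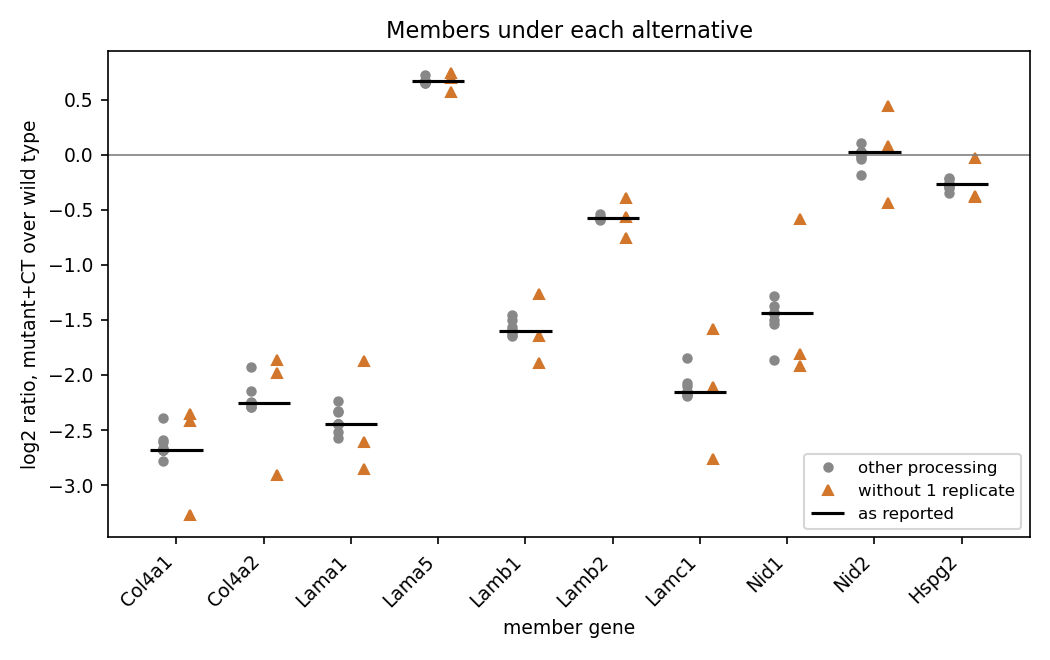
Log2 ratio of mutant+CT over wild type (vertical axis) of each member as reported (line), under other processing (circles) and without 1 replicate (triangles). Of the 10 members Nid2 alone lies on both sides of 0, and without replicate 2 Nid1 lies at -0.58.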

How the data were processed

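The deposited scanner files hold intensity values, the mean signal and local background median of each spot for both dyes; per the file headers the scanner software was Feature Extraction (Agilent) version 10.7.3.1. They also hold Agilent's processed intensity and a deposited log10 ratio of Cy5 over Cy3. A deposited table gives normalized log2 ratios from the authors. The submitters' processing notes name limma, and the steps are not given in the sources used here. Its column medians are -0.02, 0.01 and -0.01, it follows the ratios computed here with correlations of 0.996, 0.997 and 0.999 and slopes of 1.03, 0.966 and 0.974, and so runs as mutant+CT over wild type. Whether it was centred stays unknown.

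In R 4.3.3 with limma 3.58.1, normexp with an offset of 50 corrected the background, loess within each array normalized the dyes (control spots at weight 0), outlier spots were set to missing, and ratios were turned to mutant+CT over wild type. Spots of a probe were averaged. A probe was kept when well above background on all 3 arrays in either condition with a value on every array, which left 26316 probes, and a gene stands by its brightest one. Names came by accession from RefSeq GRCm38.p6, and otherwise from the files. Ratios were tested against 0 with limma over 20388 genes with Benjamini-Hochberg adjustment, and probes likewise over all kept probes. The fit was tested on simulated data. Named by rule are the members, in each related list the 3 genes with the smallest p (of the other chains all but 1, which is not reported here), in each marker list 2, and the 6 nearest profiles. The members and lists were chosen with earlier results of these data known. RNA was 1 µg of total RNA per sample, amplified, with 300 ng of cRNA per dye, per the labels.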

Additional observations from a re-analysis of the deposited data

How the results depend on the processing

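There were 3 arrays, 1 of them with swapped dyes. The limma p-values test the mean ratio against 0, with the variance of each gene drawn toward a value common to all genes. They cover these 3 pairs only. The reported test is itself paired, since it uses the ratio of the 2 conditions within each array. A replicate block would be the array itself, so no further blocked fit was made. Counts of genes passing limma over all genes depended on the setting: 0 as reported, 286 on Agilent's processed signals, 13 with probes above background in both channels, 176 with a trended and robust prior, 298 at an adjusted p under 0.1, and 0 to 147 when leaving out a replicate (147 without replicate 1). Of the members, 1 passed with the trended and robust prior (Col4a1, limma adjusted p = 0.0466) and 1 at an adjusted p under 0.1 (also Col4a1), and over its 13 alternatives the adjusted p of Col4a1 ran from 0.0466 to 0.241. Under the other alternatives 0 members passed. Nid2 changed sign, to -0.043 with arrays scaled to the same spread, -0.020 in the deposited table, -0.18 with a dye term and -0.44 without replicate 3 (0.45 without replicate 2). The other 9 members kept their sign in all 13 alternatives. Leaving out a replicate, the members' median ran between -1.78 and -1.24 (-1.24 without replicate 2), and 3 to 5 members were at least 2-fold lower (5 without replicate 2). That count was 2 with median centring, where 0.814% of all genes met it, and 3 on Agilent's processed signals, where 2.15% did. Of the members 7 to 9 were lower on every array used, against 14.8% to 34.5% of all genes by setting. The count was 7 on Agilent's processed signals (18.3% of all genes), with median centring (14.8%) and in the deposited table (18%). It was 9 without replicate 3 (23.9%). Of the collagen assembly genes, counted under the same alternatives after the data were seen, 8 to 10 were lower on every array used. The 10 came without replicate 2, where 34.5% of all genes were lower on both arrays. The causes were not tested.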
